A study of Mus musculus with 5 samples.

Results

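Cluster 11 was a group of small, mostly non-dividing cells with the transcripts of double-positive thymocytes, found among CD45+ cells sorted from mouse thyroids. Its members are the cells that the authors' deposited cell table puts in cluster 11 of 17, and there were 347 of them among 10275 cells. They are called thymocyte-like because Arpp21, Insl5, Chrna9, Gm15340 and Ctsl, 5 of the 6 genes given as their markers, were far above other cells; the other one, Rag1, was not. Double-positive thymocytes are immature T cells that carry both coreceptors, CD4 and CD8, and rearrange the alpha chain of the T cell receptor with the RAG recombinase. They normally sit in the thymic cortex, are small and out of cycle after an earlier burst of division, and stay so until a receptor signal selects them. Selected cells then switch on activation genes such as Cd69 and Cd5, lose one coreceptor and gain the receptors and survival genes with which mature T cells leave the thymus.

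The study asked how checkpoint blockade changes the immune cells of the thyroid. Male and female NOD mice, a strain prone to autoimmunity, entered the study aged 4 to 6 weeks and were treated over 4 weeks. The group called ICI (immune checkpoint inhibition) received anti-PD-1 (clone RPM1-14) with anti-CTLA-4 (clone 9D9) at 10 mg/kg per dose, and the control group received isotype antibodies (clones 2A3 and MPC11). Cells from 16 ICI mice and 10 isotype mice were pooled into 4 ICI libraries and 1 isotype library, and the labels do not tie mice to libraries. Transcripts were read from the 5′ end and counted as UMIs, molecular tags that mark single captured molecules.

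The libraries were unequal in ways that touch every result below. The 5 libraries held 1163 to 5018 cells and 3858251 to 32296759 UMIs. ICI 1 stood apart: 54.2% of its cells had under 5% of UMIs in ribosomal protein genes, against 0.638% to 13.7% in the others, and 15 of its 21 cluster 11 cells were among them. Of those 21 cells, 15 also had under 1000 UMIs. ICI 2 and ICI 3 shared 140 cell barcodes, while 4 cluster 11 cells had a barcode seen in another library and none of their partners lay in cluster 11. Within cluster 11, Xist, transcribed in female cells, had 16 UMIs in ICI 1 and 0 in each of ICI 4 and isotype. Only ICI 1, ICI 4 and isotype had enough members (21, 155 and 168) to sum, with 22305, 441090 and 337562 UMIs. ICI 1 values therefore rest on few molecules, and ICI 4 and isotype carry the description.

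The given markers other than Rag1 stood at a higher level in cluster 11 than in the related clusters 2 and 5. Levels are counts per 1000000 UMIs (CPM), summed over a library's cluster 11 cells, and folds between clusters are on the log2(CPM + 10) scale. These genes shaped the clusters, so comparisons between clusters are descriptions without a test. Arpp21, a phosphoprotein gene that is high in cortical thymocytes (chr9:112065091-112235938, mm10, minus strand), stood at 2150 CPM in ICI 1, 501 in ICI 4 and 530 in isotype. Cells of cluster 2, a larger thymocyte-like cluster also mostly in G1, had 32.1 CPM in ICI 4 and 97.0 in isotype. Cluster 5, a cycling thymocyte-like cluster, had 240 and 208 CPM of Arpp21 in ICI 4 and isotype. Its cells are deeper, and 89.0% and 83.7% of them had an Arpp21 UMI, against 67.1% and 57.1% of the members. Chrna9, a nicotinic receptor subunit (chr5:65934921-65977326, plus strand), stood at 269, 288 and 370 CPM in ICI 1, ICI 4 and isotype, and was seen in 48.4% of the members.

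Insl5, an insulin-like peptide hormone (chr4:103017872-103026842, minus strand), stood at 359, 165 and 198 CPM in the same order. Ctsl, the lysosomal protease cathepsin L (chr13:64359337-64370890, minus strand), stood at 628, 510 and 788 CPM. It was seen in 52.7% of the members and in 55.4% of the deeper cluster 5 cells. Gm15340, an unnamed gene model (chr16:95900398-95901728, plus strand), stood at 807, 449 and 838 CPM. All 5 were higher in cluster 11 than in cluster 2, by 2.33 (Chrna9) to 3.33 (Arpp21) on the log2 scale. The ICI 4 and isotype counting intervals overlapped for Arpp21, Insl5 and Chrna9. They did not for Ctsl (446 to 581 against 696 to 889 CPM) and Gm15340 (388 to 516 against 744 to 942 CPM). These intervals cover counting error only, and the share of all genes without overlap is not given here. Neither Ctsl nor Gm15340 passed the test between treatments given further on (edgeR adjusted p = 0.999 for both).

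Rag1, which encodes the DNA-cutting subunit of the recombinase (chr2:101638282-101649501, minus strand), was near background in these cells. It had 0 UMIs in ICI 1, 5 in ICI 4 and 20 in isotype, of which 7 lay in 1 cell. That gave 11.3 CPM in ICI 4 and 59.2 in isotype, with UMIs in 14 of the 347 cells. In the isotype library the same transcript was found at 39.5 CPM in naive T-like cluster 0, at 80.5 in effector T-like cluster 1 and at 166 in macrophage-like cluster 7, cells that should not express it. In ICI 4 those clusters had 0, 1.86 and 7.94 CPM. The isotype value of cluster 11 thus lay within the range of other cells of its library. Cycling cluster 5 had 61.1 CPM in ICI 4 and 61.0 in isotype, about as much as the isotype members but in both libraries. Its partner Rag2 had 5 UMIs in each of ICI 4 and isotype, 11.3 and 14.8 CPM.

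Other thymocyte transcripts were also seen in isotype macrophage-like cells: Dntt at 203 CPM and Arpp21 at 113. For these 2 genes the cluster 11 level in isotype was well above that (865 and 530 CPM). The level of these transcripts in cells that should lack them thus differed between the libraries, and its part in the differences between treatments was not tested. Thinned to 1000 UMIs, 54.5% of the isotype members had a Dntt UMI and 39.1% an Arpp21 UMI, against 14.0% and 9.30% of isotype cluster 7 cells.

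A small cluster, 15, with 116 cells and a median of 9561.5 UMIs, also had Arpp21 (243 CPM) and Dntt (858 CPM).

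Coreceptor and other double-positive genes were high relative to cluster 2, while T lineage factors as a set were not. Of 13 T lineage factors 5 were higher than in cluster 2, with a median log2 difference of -0.17. Of 15 double-positive genes, 14 were higher in cluster 11 than in cluster 2, 10 of them at least 2-fold, with a median log2 difference of 1.28; the exception was Satb1, a chromatin organiser. In ICI 4 alone 14 were higher, and in isotype alone 12, where Rag1 and Cd1d1 were also lower than in cluster 2. Cd8a, the alpha chain of the CD8 coreceptor, stood at 1390 CPM in ICI 1, 1630 in ICI 4 and 2280 in isotype against 654 in cluster 2. Cd8b1, its beta chain, stood at 1520, 1160 and 1420 CPM against 382. Cd4 stood at 897, 494 and 584 CPM against 305. Both coreceptors were therefore high in every library that could be summed.

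Bcl2l1, which encodes the survival factor BCL-XL, had 73.2 CPM over the members and 26.4 in cluster 2. Themis, a receptor signalling adaptor of the same stage, had 580 CPM against 233. Dntt, the polymerase that adds bases at receptor joints, had 814 against 98.2 CPM, and 681 in cluster 5. Ptcra, the surrogate alpha chain of the preceding stage, had 63.3 CPM against 4.68 in cluster 2 and 58.6 in cluster 5. Of the earlier stage's genes Erg and Lyl1 had 0 UMIs, and Kit and Il2ra had 2.48 and 3.72 CPM.

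Single cells carried both coreceptors together. Cd4 and Cd8a UMIs were found in the same cell in 65.1% of cluster 11 (95% exact interval 59.9 to 70.1), namely 42.9% in ICI 1, 67.1% in ICI 4 and 66.7% in isotype. The share was 18.3% in cluster 2 and 2.83% in cluster 0, and 0 of 160 B-like cells, where 3 counts of the total would be 1.88%. Median depth was 1934 UMIs in cluster 11 and 2765, 3418 and 3692.5 in those 3 clusters. Cycling cluster 5, at a median of 13085 UMIs, had a share close to that of cluster 11. There it was 60.0% (56.5 to 63.4), namely 68.7% in ICI 4 and 58.2% in isotype. The isotype library had a higher background: there 58 of 129 macrophage-like cluster 7 cells, at a median of 9932 UMIs, had both transcripts, and 13.4% of cluster 0 cells. With each cell thinned to 1000 UMIs, which leaves out 33 members, the share was 34.1% in cluster 11, 7.55% in cluster 2 and 8.44% in cluster 5, and in isotype cluster 7 it was 5.43%. The thinned share was 28.7% in ICI 4 (21.6 to 36.6) and 40.4% in isotype (32.6 to 48.5). These intervals cover counting error only, and they overlap.

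Genes of positive selection and of egress were low relative to cluster 2, but most were not lower than in cycling cluster 5. Of 14 egress genes all had a lower CPM than in cluster 2, with a median log2 difference of -1.36, and of 13 selection genes 11 did, with a median of -0.94. In ICI 4 alone 13 egress genes were lower and in isotype alone 10, and 11 and 10 selection genes. Over all genes the median was 0.00. Against cluster 5, 9 of the 13 selection genes and 8 of the 14 egress genes were higher, with median log2 differences of 0.66 and 0.13. Of all 18767 genes 8204 were higher than in cluster 5, with a median of 0.00. Of the 6423 genes later tested between treatments 4450 were, with a median of 0.35. Neither list was thus above the share of the tested genes. Itm2a, a membrane protein induced by selection, stood at 89.7 CPM in ICI 1, 129 in ICI 4 and 50.4 in isotype, against 1650 in cluster 2. Of the 57 UMIs in ICI 4, 26 were in 1 cell. Ccr7, the receptor that draws selected cells into the medulla, had 0, 64 and 21 UMIs, with 15 and 17 in the highest cell of ICI 4 and isotype; its level in cluster 2 was 819 CPM.

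Other survival and signalling genes had the same order. Bcl2, which protects mature T cells, had 39.7 CPM against 276 in cluster 2, and Il7r, the interleukin-7 receptor chain, had 28.6 against 243. Nab2, a partner of the EGR factors that receptor signals induce, had 19.9 against 211 CPM. Cd5 and Cd69 had 273 and 91.9 CPM against 534 and 183. Zbtb7b and Egr3, a CD4 lineage factor and an early growth response factor, had 0 UMIs. Not every signal gene was low. Nr4a1 (615 against 600 CPM) and Id3 (366 against 295) were not lower than in cluster 2. With each cell thinned, at least 2 of Itm2a, Nab2, Cd69, Ccr7 and Il7r were seen in 1.91% of members and 38.2% of cluster 2 cells. In thinned cluster 5 cells the share was 1.26%. Itm2a, Nab2, Ccr7 and Il7r are also among the genes lowest relative to cluster 2 in these data. The contrast with cluster 2 therefore follows from the choice of genes.

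Class I genes were also low. Of 14 genes of class I presentation, 1 (Tap2) was higher than in cluster 2. H2-D1, a class I heavy chain, stood at 403 CPM in ICI 1, 642 in ICI 4 and 355 in isotype, against 1370 in cluster 2 and 518 in cluster 5. H2-K1, another heavy chain, had 21.1 CPM against 111 and 63.7. B2m, their shared light chain, had 391 against 754 and 425.

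**Figure D1:**
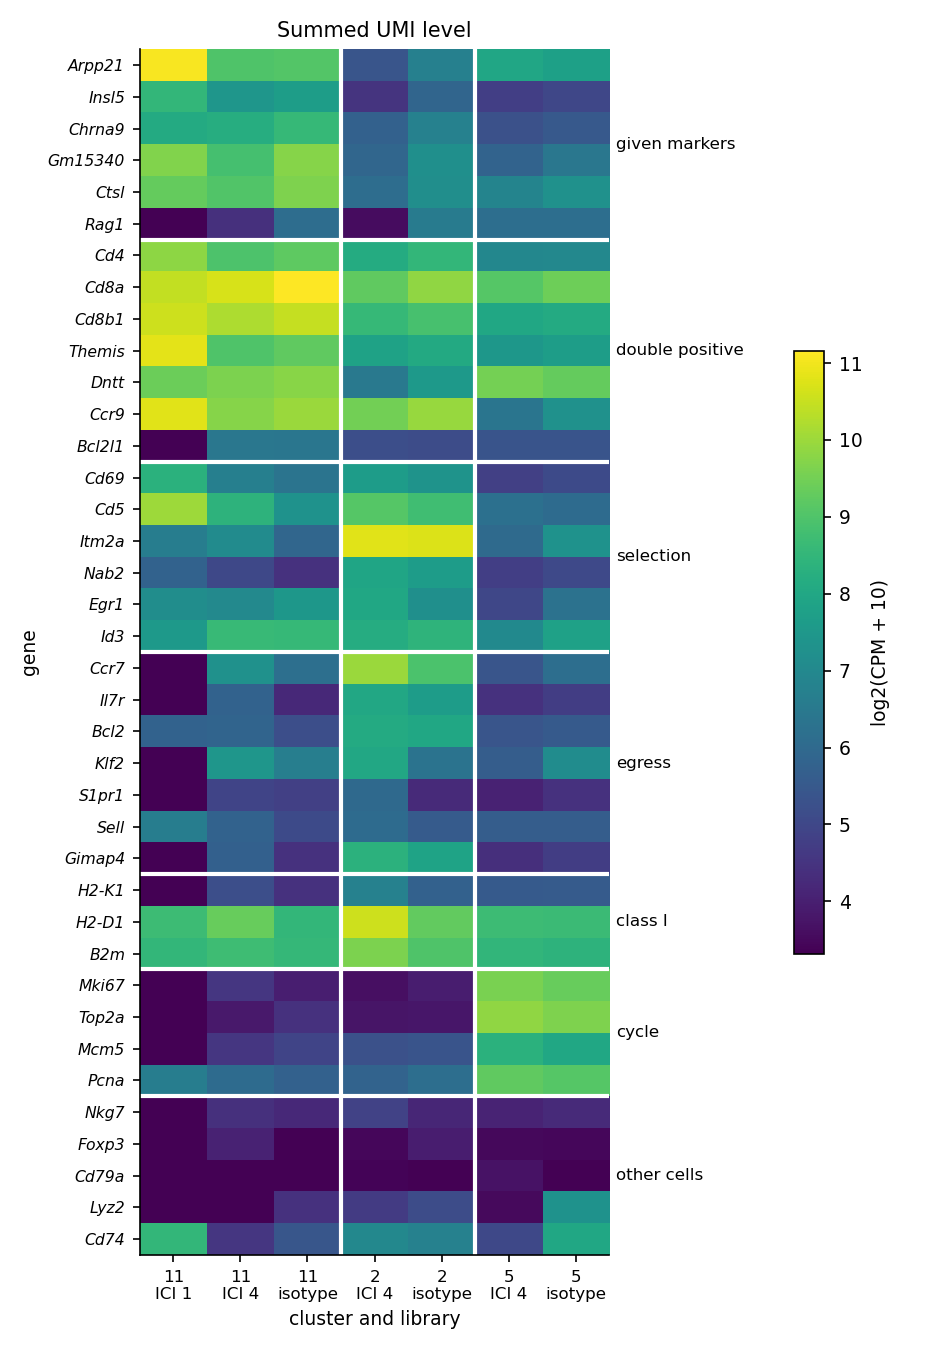
Level of 38 genes, log2(CPM + 10) of summed UMIs, in cluster 11 of ICI 1, ICI 4 and isotype and in clusters 2 and 5 of ICI 4 and isotype; genes are grouped by role and colour runs from dark (0 CPM) to yellow. Of the given markers all but Rag1 are brighter in cluster 11 than in cluster 2 in both ICI 4 and isotype. Rag1 is brighter there in ICI 4 and darker in isotype. Itm2a, Nab2, Ccr7, Il7r and Gimap4 are brighter in cluster 2 and Mki67 and Top2a in cluster 5.

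The 10 largest folds over all other cells were those of Chrna9, Insl5, Tctex1d1, Ctsl, Syt13, Ldhb, Slc16a5, Ccr9, Wdr78 and Arpp21, by 3.75 (Chrna9) to 2.81 (Arpp21) on the log2 scale. Ccr9, the receptor for a thymic and gut chemokine, was seen in 74.9% of members and 21.9% of other cells. Over cluster 2, the largest folds were those of Ly6d, H2-T3, Arpp21, Endou, Dntt, Ctsl, Rapgef3, Desi1, Insl5 and Xrcc6. Ly6d, a surface protein of early lymphocytes, stood at 134, 775 and 752 CPM in ICI 1, ICI 4 and isotype, against 31.7 in cluster 2. H2-T3, the thymus leukaemia antigen, stood at 1340, 807 and 456 CPM against 50.8. Xrcc6, the Ku70 subunit of the end-joining machinery, had 449 CPM against 67.1.

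The genes lowest relative to cluster 2 were Itm2a, Bach2, Ccnd2, Samhd1, Tesc, Tmem64, Gimap4, Nab2, Ccr7 and Il7r. Bach2, a repressor that keeps T cells quiescent, had 13.7 CPM against 272, and Ccnd2, a D-type cyclin, 9.93 against 223. Relative to all other cells the lowest were Cd74, Cxcr6, S100a6, S100a4, Ctsw, Igfbp4, Nkg7, Ly6a, Fgl2 and Il2rb. These include genes of effector and memory T cells: S100a4 was seen in 0.865% of members and 26.0% of other cells.

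Death and survival genes were split. Bcl2l11, which encodes the death factor BIM, had 314, 601 and 415 CPM in ICI 1, ICI 4 and isotype, and 242 in cluster 2. Bbc3, the related PUMA, had 69.5 CPM against 28.1, while Bax had 114 against 149. Among 7 glucocorticoid response genes, Tsc22d3, the leucine zipper GILZ, had 420 CPM against 193, and the receptor gene Nr3c1 had 204 against 194. Of the antibody targets, Pdcd1 had 7 UMIs, of which 6 were in 1 ICI 4 cell, and Ctla4 had 89.7, 40.8 and 38.5 CPM. Cd80 and Cd86, ligands bound by CTLA-4, had 0 UMIs.

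The label small and resting fitted the depth, and the cycle genes when set against cluster 5. The members had a median of 1934 UMIs and 1172 genes, the second lowest depth of the 17 clusters, against 2765 UMIs in cluster 2 and 13085 in cluster 5. Their median depth was 879 UMIs in ICI 1, 2303 in ICI 4 and 1695 in isotype. Depth is a stand-in for RNA content and not a measure of cell size. None of 15 S phase genes and none of 15 G2M phase genes was higher than in cluster 5, with median log2 differences of -3.08 and -3.84. Against cluster 2, 7 of the S phase genes and 12 of the G2M phase genes were higher, with medians of 0.00 and 0.36; the summed G2M genes had 1660 CPM against 1360 in cluster 2 and 13000 in cluster 5. Mki67, a protein of dividing nuclei, had 9.93 CPM against 771, and Cdk1, the mitotic kinase, 2.48 against 220.

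The authors' phase calls put 144 of 155 members in G1 in ICI 4 (92.9%), 126 of 168 in isotype (75.0%) and 8 of 21 in ICI 1 (38.1%). In cluster 5 no cell was called G1. Cluster 2 cells were called G1 more often than the members, with 96.1% in ICI 4, 87.7% in isotype and 60.2% in ICI 1. The members' share in G1 thus had the same order over the 3 libraries as their depth. The summed S phase genes were close in level, with 493, 549 and 536 CPM in ICI 1, ICI 4 and isotype. Phase calls alone are no measure of cycling, and the part of depth in these was not tested.

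**Figure D2:**
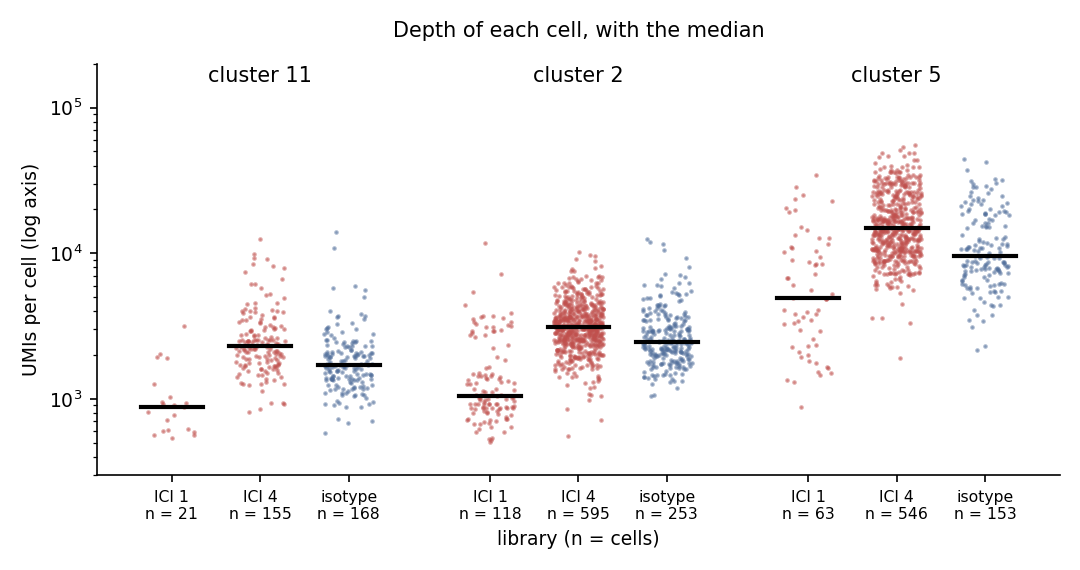
UMIs per cell (log axis) in ICI 1, ICI 4 and isotype for clusters 11, 2 and 5; each point is a cell and each bar the median. Cluster 11 medians of 879, 2303 and 1695 lie below those of cluster 2 in the same library and far below those of cluster 5, and ICI 1 is the shallowest library in each cluster.

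Several defining markers of other cell types had no UMI in cluster 11, while some lists had a sizeable sum. In the B cell list Cd79a, Ms4a1, Iglc2 and Pax5 had 0 UMIs; the summed list (549 CPM in ICI 4, 560 in isotype and 762 in ICI 1) was nearly all Ighm, with 230, 176 and 16 UMIs. The macrophage list summed to 4.53 CPM in ICI 4, 29.6 in isotype and 44.8 in ICI 1, with Csf1r and Adgre1 at 0, against 18900 in cluster 7. The natural killer list summed to 8.89 to 44.8 CPM with 5 of 7 genes at 0, and the type 2 innate lymphoid list to 0 to 29.6 CPM. Thymic epithelial genes summed to 15.9 CPM in ICI 4 and 17.8 in isotype, with Psmb11, Prss16, Aire, Cd83 and Krt5 at 0. The dendritic list summed to 493 CPM in ICI 1, mostly 8 Cd74 UMIs, and to 22.7 and 62.2 in ICI 4 and isotype, with Itgax, Siglech and Cd209a at 0. Red cell genes summed to 3700 CPM in ICI 4, nearly all in 1 cell, and to 0 and 118 in ICI 1 and isotype. Thyroid follicle genes summed to 895 CPM in isotype, where 1 cell held most, and to 0 and 6.8 in ICI 1 and ICI 4. Parathyroid genes summed to 124 CPM in isotype and 9.07 in ICI 4. The part of these cells' RNA in the differences between libraries was not tested beyond leaving out the 2 cells named with the treatment test. Regulatory T genes summed to 411 CPM and gamma-delta T genes to 377, against 5240 and 4470 in clusters 4 and 6, the regulatory T-like and gamma-delta T-like clusters. Of 12 effector T genes, Lgals1 gave nearly the whole sum (639 of 695 CPM), and Ifng and Gzmb were at 0.

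Transcripts of both receptor chains were found in most members. A Trbv UMI was found in 93.9% of thinned members and a Trav UMI in 66.2% (80.4% without thinning), against 87.6% and 70.3% in cluster 2 and 81.0% and 20.3% in cluster 5. In isotype macrophage-like cluster 7, which should lack them, the thinned shares were 51.2% and 15.5%, against 93.6% and 65.4% of the isotype members; in ICI 4 they were 31.1% and 8.89%, against 94.0% and 66.0%. Per 10000 UMIs, members had 12.9 Trav UMIs, with 24.2 in ICI 1, 12.4 in ICI 4 and 12.6 in isotype; cluster 2 had 15.5, cluster 5 2.11 and cluster 0 12.1. Relative to all UMIs, alpha segment transcripts were thus near the level of naive T-like cluster 0, and rarer in the cycling cluster. Cells of the cycling cluster are deeper, and counted per cell the gap was not seen. Cluster 5 had 2610 Trav UMIs in 805 cells, and cluster 11 had 1042 in 347. Without thinning, 64.6% of cluster 5 cells had a Trav UMI. Trbc, the beta constant genes, had 40.3 per 10000 against 23.9 in cluster 2 and 6.49 in cluster 0. Segments with near-identical copies may share reads, so single segments are uncertain.

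The first alpha rearrangements of a thymocyte use segments near the 3′ end of the variable array, and later ones reach further 5′. Of the 77 Trav segments on chromosome 14 in the table, ordered by GENCODE vM21 positions, the 20 nearest the 3′ end took 213 of 1042 Trav UMIs in cluster 11. That is 20.4% (18.0 to 23.0), with 20.4% in ICI 1, 19.5% in ICI 4 and 22.2% in isotype. Clusters 2 and 0 were close to it, at 22.0% (20.8 to 23.2) and 21.7% (20.7 to 22.7). Cluster 5 had 36.4%, namely 16.9% in ICI 1, 43.5% in ICI 4 and 30.9% in isotype. There Trav15-2-dv6-2, a segment also used in delta chains, held 15.9% of the Trav UMIs. Without segments shared with the delta chain the share was 16.8% in cluster 11 and 16.6% in cluster 5, a smaller gap than with them. UMIs of 1 cell are not independent, and the intervals cover counting error only.

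**Figure D3:**
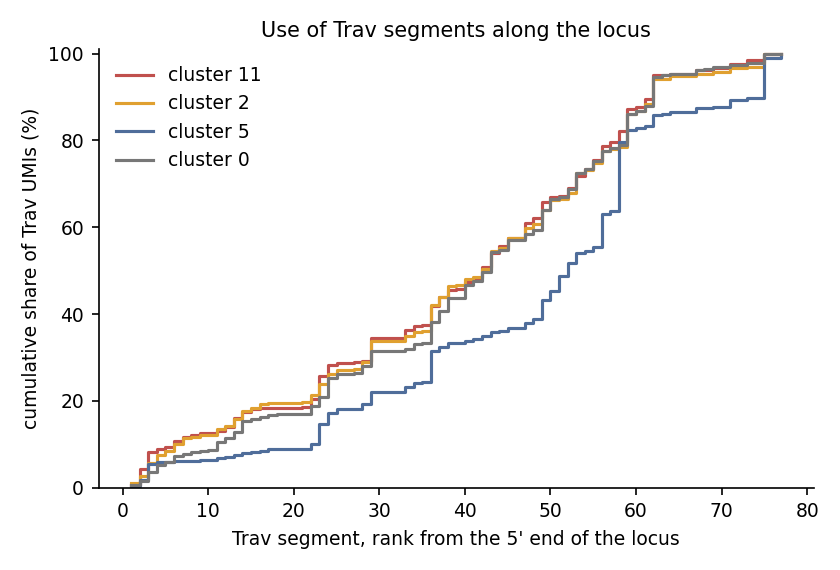
Cumulative share of Trav UMIs (%) along the locus, by the rank of the 77 segments from the 5′ end, in clusters 11, 2, 5 and 0, all libraries summed. The curves of clusters 11, 2 and 0 run together, and that of cluster 5 lies lower along most of the array and rises late.

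Cluster 11 was rare in ICI libraries and common in isotype. It held 21 of 1523 cells in ICI 1 (1.38%), 2 of 1219 in ICI 2 (0.164%), 1 of 1163 in ICI 3 (0.0860%), 155 of 5018 in ICI 4 (3.09%) and 168 of 1352 in isotype (12.4%, 95% exact interval 10.7 to 14.3). The isotype share was above every ICI share, and the highest ICI interval ended at 3.61%. The ICI mean was 1.18% ± 1.40 (SD, n = 4), a difference of -11.2 percentage points, lower in 4 of 4 libraries. The exact two-sided permutation p was 0.2, raw and adjusted over 2 share comparisons, which is the smallest that 4 libraries against 1 allow. ICI 4 held 2 sets of cells with different barcode suffixes, with shares of 2.36% and 3.77%. Whether ICI 2 and ICI 3, which shared 140 barcodes, are independent was not settled. With ICI 1 to 3 summed, the ICI mean was 1.85% and the difference -10.6 points.

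Cluster 11 was also a smaller part of the thymocyte-like cells. It made up 10.4% of clusters 2, 5 and 11 in ICI 1 (202 cells), 5.00% in ICI 2 (40 cells), 2.13% in ICI 3 (47 cells), 12.0% in ICI 4 (1296 cells) and 29.3% in isotype (574 cells). The ICI mean was 7.37% ± 4.59 (SD, n = 4), lower by 21.9 points in 4 of 4 libraries, again with the smallest possible exact permutation p of 0.2. The 3 clusters did not differ from isotype by the same factor: the isotype share over the ICI mean was 10.5 for cluster 11, 3.25 for cluster 2 and 2.43 for cluster 5. ICI 4 weighed on these ratios: without it they were 22.9, 5.01 and 4.37, an alternative chosen after seeing the data. This difference between clusters was not tested. With 1 isotype library, treatment and library cannot be told apart. Over all cells, isotype had a median depth of 3621.5 UMIs, and ICI 1 to 4 had 1753, 2844, 3567 and 4321. ICI 3, with the lowest share, was thus near isotype over all cells, but it was far shallower in the related clusters. Its cluster 2 median was 571 UMIs against 2469 for isotype, and its cluster 5 median 1686 against 9503. ICI 1 and ICI 2 also lay below isotype in both clusters, and ICI 4 lay above it (3104 and 14788.5). The part of depth in the shares was not tested beyond the cut given next. With cells of at least 1000 UMIs only, the difference in the share of all cells was -10.8 points.

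**Figure D4:**
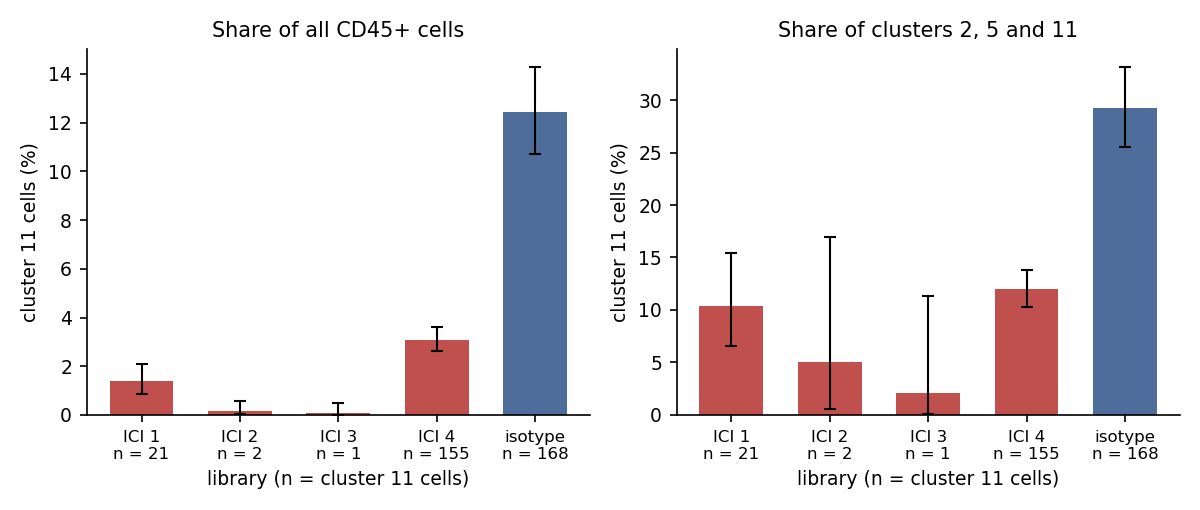
Cluster 11 as a percent of all cells (left) and of the cells in clusters 2, 5 and 11 (right) in each library; bars are shares and lines exact 95% binomial intervals, with the number of cluster 11 cells under each library. Isotype stands at 12.4% and 29.3%, above the 4 ICI libraries, which lie at 0.0860% to 3.09% and 2.13% to 12.0%.

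Within cluster 11, few genes passed the test between treatments, and most of those calls rested on 2 cells. The test compared ICI 1 and ICI 4 with isotype, so its p-values measure the spread between 2 unlike ICI libraries of pooled mice, with 1 residual degree of freedom. Of 6423 genes tested, 9 were called at an edgeR adjusted p under 0.05 (0.140%), 3 higher in ICI (0.0467%) and 6 lower (0.0934%). The lower genes were Tg, Thbs1, Atf3, Mt1, Trbv30 and Rbm24, and the higher ones Xist, Hba-a2 and Rgs1.

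Tg, thyroglobulin, the storage protein of thyroid follicle cells, had 0 UMIs in ICI 1, 2 in ICI 4 and 297 in isotype. Of the 297, 292 lay in 1 cell. The same isotype cell, with 14007 UMIs and 4466 genes, held 50 of 50 UMIs of Thbs1, a matrix glycoprotein, 45 of 46 of the stress factor Atf3 and 56 of 63 of the metallothionein Mt1. It also had 24 Cd8a, 13 Cd3e and 8 Arpp21 UMIs. Tg was lower in ICI by a ratio of 204 (counting interval 55.9 to 1690; edgeR adjusted p = 2.3e-05), and Thbs1, with 0 ICI UMIs, was at least 22.9-fold lower against a floor of 3 counts over both ICI libraries. Hba-a2, an alpha globin gene, had 0 UMIs in ICI 1, 26 in ICI 4 and 0 in isotype, and the 26 lay in 1 cell of 7470 UMIs that also held 643 Hbb-bs UMIs.

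Without these 2 cells, an alternative chosen after seeing the data, edgeR called 0 of 6343 genes, and 61 had an unadjusted p under 0.05. In the full set 134 genes had one, and DESeq2 called 1 gene, Tg. None of the 9 genes kept its call without them, but 4 kept their fitted log2 folds, from 8.37 to 8.32 for Xist, 6.53 to 6.52 for Rgs1, -4.38 to -4.41 for Trbv30 and -4.02 to -4.05 for Rbm24. The lost calls of these 4 genes therefore do not show that they rested on the 2 cells.

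The other called genes were low counts. Rgs1, a regulator of chemokine receptor signals that is high in activated lymphocytes (chr1:144242296-144249242, minus strand), had 0 UMIs in ICI 1, 20 in ICI 4 and 0 in isotype. The 20 UMIs were in 4 cells, 10 of them in 1 cell (edgeR adjusted p = 0.0138). Rbm24, an RNA-binding protein (chr13:46418434-46431095, plus strand), had 0, 1 and 14 UMIs, the 14 in 9 cells, a ratio of 19.2 (2.92 to 813; edgeR adjusted p = 0.0457). Trbv30, a beta chain segment, had 0, 1 and 18 UMIs, with 10 of the 18 in 1 cell (edgeR adjusted p = 0.00978). Xist was called from ICI 1 alone (edgeR adjusted p = 0.00892).

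**Figure D5:**
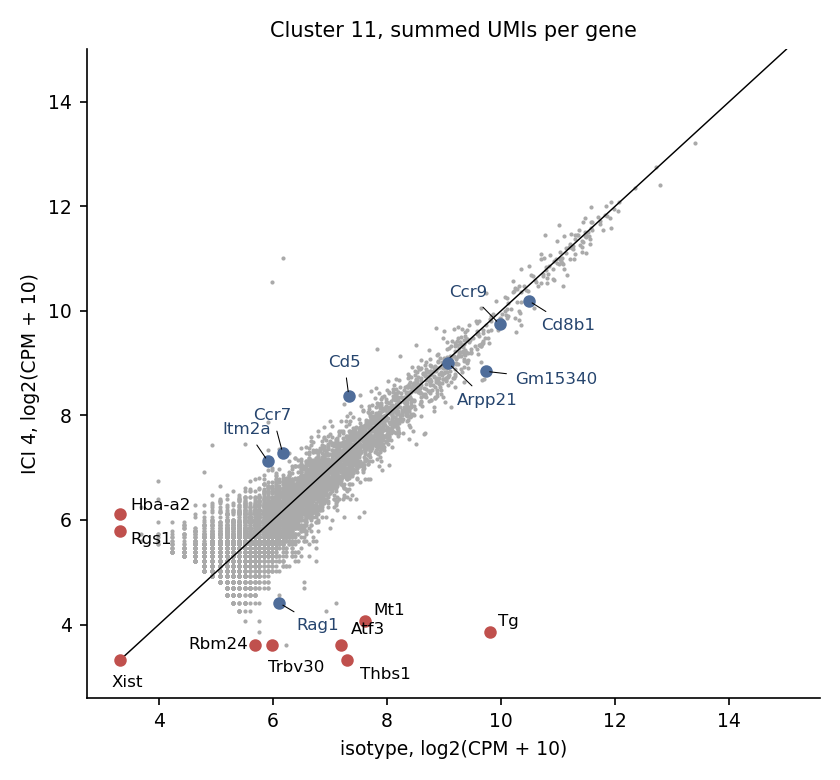
Level of each gene in cluster 11, log2(CPM + 10) of summed UMIs, in isotype (x) and ICI 4 (y), for genes with over 40 CPM in both libraries together; the line marks equal levels, red points are the 9 genes called with ICI 1 included, and blue points are named thymocyte genes. Most genes lie along the line, Tg, Thbs1, Atf3 and Mt1 lie far below it through 1 isotype cell, and Cd5, Ccr7 and Itm2a lie above it.

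Thymocyte stage genes did not pass the test between treatments in either direction. Of the 15 double-positive genes 14 were tested and 0 called, with 6 above and 8 below isotype and a median log2 fold of -0.07. Of the 12 receptor complex genes all were tested and 0 called, with 3 above and a median of -0.31. Of 10 tested selection genes 6 lay above isotype, with a median of 0.72, and of 10 tested egress genes 9 did, with a median of 0.78, again with 0 called. Over all 6423 genes, 2949 lay above isotype and the median was -0.06. The lowest adjusted p in these 4 lists was 0.479, for Ly6a, with 22 of its 43 ICI 4 UMIs in 1 cell. At an unadjusted edgeR p under 0.05 there were 134 of all 6423 genes. Among them were 1 double-positive gene (Rag1), 1 selection gene (Runx3), 3 egress genes (Il7r, Gimap4 and Ly6a) and 0 receptor complex genes. The isotype level of Rag1 lay within the range of other cells of its library. DESeq2 called none of the genes in these 4 lists.

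Cd5, a brake on receptor signals whose level follows their strength, stood at 1030 CPM in ICI 1, 322 in ICI 4 and 151 in isotype. The counting intervals of ICI 4 (271 to 379) and isotype (112 to 199) did not overlap, but they cover counting error only. The share of all genes without overlap is not given here. The fitted log2 fold of 1.75 (SE 1.02) did not pass (edgeR adjusted p = 0.999). The 2 barcode sets of ICI 4 had 385 and 280 CPM, both above isotype. In cluster 2 the log2 difference of ICI 4 over isotype was 0.32, and in cluster 11 it was 1.04. Itm2a and Ccr7 also had higher values in ICI 4 than in isotype (129 against 50.4 and 145 against 62.2 CPM), with 26 of the 57 Itm2a UMIs of ICI 4 in 1 cell. For Ccr7 1 cell held 15 of 64 UMIs in ICI 4 and 17 of 21 in isotype.

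Genes with at least 50 UMIs, and no single cell holding a large part of the UMIs of the higher side, were ranked by size of fold. This ranking was used after its values were seen. Jup, Kcnq1ot1, Slc29a1, H1f0, Rinl, Tapbp, Serinc5 and Cd5 had the largest values in ICI. Jup, a junction and signalling protein, had 0, 165 and 35.5 CPM in ICI 1, ICI 4 and isotype. H1f0, a linker histone of resting cells, had 0, 603 and 216 CPM. Slc29a1, a nucleoside transporter, had 89.7, 152 and 50.4 CPM, and Tapbp, which loads peptide on class I, had 134, 83.9 and 29.6. ICI 1 had no UMI of Jup or H1f0, which at its depth leaves an upper 95% limit of 165 CPM, above the isotype level of Jup and below that of H1f0. Kcnq1ot1, a long noncoding RNA of the nucleus, had 897, 88.4 and 35.5 CPM; in ICI 1 members the nuclear RNA Malat1 was also high, with a median of 2.46% of UMIs against 1.03% in ICI 4 and 1.09% in isotype, and its part in this value was not tested.

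In the other direction U2af1, Szrd1, Zbtb20 and Hist1h1b led. U2af1, a splicing factor, had 0, 165 and 353 CPM, and Hist1h1b, a linker histone, had 134, 193 and 394. No gene in either ranking was called by edgeR; the lowest adjusted p among these 12 was 0.551, for Kcnq1ot1. Of 12 tested class I genes 7 lay above isotype (median 0.30) and of 15 interferon response genes 11 did (median 0.25), with 0 called. Of 17 tested stress genes 4 lay above (median -0.36), and 1, Atf3, was called.

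The effect of treatment was also compared between clusters 11 and 2, with the library as a block. Of 8120 genes tested, 1 was called (0.0123%): Trdv1, a delta chain variable segment (chr14:53881612-53882217, plus strand). In cluster 11 it stood at 0 CPM in ICI 1, 79.3 in ICI 4 and 26.7 in isotype. In cluster 2 it stood at 5.21, 9.03 and 59.8 CPM. ICI 4 was thus above isotype in cluster 11 and below it in cluster 2, a difference of 4.19 on the log2 scale (SE 0.91; edgeR adjusted p = 0.0366). In cluster 11 14 of the 35 ICI 4 UMIs and 7 of the 9 isotype UMIs lay in 1 cell each.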

How the data were processed

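The authors deposited whole-number UMI counts per gene and cell and a cell table with library, cluster, mitochondrial percent, cell cycle score and phase, per the file headers. Cell Ranger and Seurat were used with build mm10, per the submitters' processing notes; versions and cell filters are not given in the sources used here. The count sums of the 10275 cells equalled the totals in the authors' cell table. The deposited clusters were kept (resolution 0.4), and no doublet caller was run. For ICI 1, 2 and 3 the cell numbers in the labels are 1688, 1234 and 1178, and the table holds 1523, 1219 and 1163.

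The members and the 33 gene lists were chosen with earlier results of these data known. UMIs were summed per library over cluster 11 cells, in libraries with at least 20 of them, and tested with edgeR 4.0.16 (quasi-likelihood, TMM, filterByExpr with a minimum count of 10, Benjamini-Hochberg adjustment over all genes tested, threshold 0.05). The spread of the lone isotype library was taken to be that between ICI 1 and ICI 4. The labels tie no animals to libraries, so p-values measure the spread between libraries only. Shares were compared by exact permutation over libraries, with exact Clopper-Pearson 95% intervals; summed counts carry exact Poisson intervals. Thinning drew 1000 UMIs per cell.

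Named genes were those of the lists, the 10 largest folds over other cells and over cluster 2 in each direction (seen in at least 20% of cells of the higher side), and the called genes; receptor segments, mitochondrial, ribosomal protein and unnamed genes were left out of rankings. The test was first tried on simulated data. Alternatives were RLE scaling, DESeq2 1.42.0, other filters, genes, cells and libraries. Results for some genes are not reported here.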

Additional observations from a re-analysis of the deposited data

Results flagged for a closer look

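For Trdv1, a delta chain variable segment, the treatment effect differed between cluster 11 and cluster 2 by 4.19 on the log2 scale (SE 0.91; edgeR adjusted p = 0.0366), by the interaction of cluster and treatment with the library as a block. It was the 1 gene called of 8120 tested. Its UMIs in cluster 11 came from 11 cells, and ICI 1 had 0 UMIs there, which leaves an upper 95% limit of 165 CPM for Trdv1.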

How the results depend on the processing

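Both share differences kept their sign and all ICI libraries stayed below isotype under every alternative run. With 1 ICI library left out, the difference ranged from -11.9 to -10.9 points for the share of all cells and from -23.4 to -20.1 for the share of clusters 2, 5 and 11. A gate of a Rag1 or Rag2 UMI with a G1 call in place of the cluster gave -8.18 points. It took 8.43% of isotype cells, but Rag1 UMIs were also found in isotype cells that should not express it. Background in that library enters this gate, so its value cannot decide on the share of cluster 11. The count of 9 called genes was 8 with RLE scaling and 9 with libraries of at least 5 cells. It was 5 without a filter on low counts, 5 without shared barcodes and 5 in G1 cells only, the last an alternative chosen after seeing the data. It was 1 with DESeq2 and 1 with receptor, ribosomal and mitochondrial genes removed. It was 0 after dropping the highest cell of each gene (7 genes at an unadjusted p under 0.05), 0 with ICI 1 to 3 summed (122 genes) and 0 without the 2 leading cells (61 genes). The share of members with a Trav UMI was 80.4%, and 66.2% after thinning. The interaction called 1 gene with either scaling, and the counts of list genes against cluster 2 stayed within 1.5 times in ICI 4 alone, in isotype alone and after thinning.

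Removing cells with macrophage, B cell or dendritic UMIs left 1 ICI library, as did leaving out ICI 1 or ICI 4, so no gene test was possible. No paired analysis was possible because the ICI and isotype groups share only 1 replicate number. Depth limits what can be seen: ICI 1 gave 22305 UMIs, where 0 counts, as for Rag1, leave an upper 95% limit of 165 CPM.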
